A study of Rattus norvegicus with 196 samples.

Results

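Cds2 and Ormdl3 are 2 genes of membrane lipid synthesis that were followed across 25 regions of the rat brain, in animals given fluoxetine (FT) and in control animals (Sham). Both were taken by name from the study's list of transcripts altered by FT in more than 1 region, which pairs names with transcript identifiers. Cds2 is ENSRNOT00000028888 and Ormdl3 is ENSRNOT00000049621, 2 of the 29188 transcripts counted in every library. The list was drawn from the FT against Sham contrast of these same libraries. The FT against Sham values of both genes, the calls of the region fits included, are therefore given as a description from which nothing is read, with no p. Their levels within the Sham group were not used to choose them, and those were tested.

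Fluoxetine is a selective serotonin reuptake inhibitor. FT rats drank water with fluoxetine at 18 mg/kg for 6 weeks from 2 months of age, and Sham rats drank water alone. The 98 FT and 98 Sham libraries were bulk RNA-seq of tissue punches pooled from several animals per library, and 1 pool of animals supplied all regions of a replicate number and treatment. Replicate numbers 1, 3, 4 and 5 were processed in parallel for both treatments, so the FT and Sham libraries of a number form a pair. The regions of a number share animals and are not independent replicates of one another. The rats were healthy, and punches hold all cell types of a region, so fewer cells of a type and less RNA per cell cannot be told apart.

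Cds2 encodes a CDP-diacylglycerol synthase of the endoplasmic reticulum. It converts phosphatidic acid to CDP-diacylglycerol, the precursor from which phosphatidylinositol is made, and phosphatidylinositol in turn is the stock from which the phosphoinositides of receptor signalling are replenished. Ormdl3 encodes a small membrane protein of the endoplasmic reticulum that binds serine palmitoyltransferase, the first enzyme of sphingolipid synthesis, and restrains it when ceramide is high. The sphingolipids made downstream include sphingomyelin and the galactolipids of myelin.

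The stretch of DNA around the start of each gene is shown because both genes are described together and the sequence is what a regulatory reading of them would begin from. Both windows are RefSeq sequence of the GRCr8 build, 300 bases long, 5′ to 3′ on the gene's own strand, with the annotated start after base 250. The Cds2 window lies on the plus strand at chr3:139967620-139967919 and the Ormdl3 window on the minus strand at chr10:84092251-84092550. Capitals mark the GC box (letters GGGCGG) and the cyclic AMP response element (letters TGACGTCA), each searched on both strands.
Cds2: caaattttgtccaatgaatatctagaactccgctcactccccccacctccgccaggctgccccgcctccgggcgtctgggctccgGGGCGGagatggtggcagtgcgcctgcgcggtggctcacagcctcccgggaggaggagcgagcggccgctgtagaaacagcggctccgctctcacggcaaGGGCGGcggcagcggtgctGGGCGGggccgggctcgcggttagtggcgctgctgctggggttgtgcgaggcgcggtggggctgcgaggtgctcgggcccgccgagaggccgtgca
Ormdl3: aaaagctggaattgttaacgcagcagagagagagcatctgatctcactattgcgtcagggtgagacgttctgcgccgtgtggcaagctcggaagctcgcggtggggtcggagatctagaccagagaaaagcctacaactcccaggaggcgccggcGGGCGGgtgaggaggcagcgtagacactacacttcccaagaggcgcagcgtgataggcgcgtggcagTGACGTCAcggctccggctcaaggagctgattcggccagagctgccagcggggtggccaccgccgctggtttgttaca

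The Cds2 window held 3 GC boxes, between bases 86 and 205, and the Ormdl3 window held 1, at base 156. Of all 33469 windows of this length, 33.1% held at least 1 GC box. The Ormdl3 window also held the cyclic AMP response element, at base 223, which 1.83% of all windows held and the Cds2 window did not. Both windows were rich in G and C, at 71.7% for Cds2 and 61% for Ormdl3 against a median of 51.7% over all windows. They held 33 and 25 CG dinucleotides, against a median of 7. A CCAAT box (letters CCAAT) was present in the Cds2 window at base 11 and in 37.5% of all windows. Neither window held a TATA box (letters TATAAA, in 14.2% of windows), an E-box (letters CACGTG, in 6.42%) or the sterol response element searched (letters TCACNCCAC, in 1.12%). A match is a description of the letters only. The files were made on an older build, rn5, so whether these starts are those of the transcripts counted was not checked.

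Libraries held 4586 to 50893913 reads on transcripts, with a median of 11921178. Levels are given as CPM, reads scaled to a fixed total, on TMM-normalised library sizes that put 195 libraries on 1 scale. The Sham library of the solitary tract nucleus (Nts), number 3, had only 4586 reads and was left out of the levels. The Sham library of the infralimbic cortex (ILC), number 3, was the next shallowest at 543403 reads. A further 2 libraries stood apart. In the ILC Sham library of number 1, 21.8% of reads were ambiguous between features and the 50 most abundant transcripts took 82.9% of reads. In the FT library of number 1 from the cingulate cortex (CGC) these shares were 24.5% and 83.3%, and that pair was kept out of the CGC fit. Labelled regions were checked against marker transcripts. Th, for tyrosine hydroxylase, ranked 1st of 25 in the ventral tegmental area (VTA, 313.9 CPM, Sham median) and next in the locus coeruleus (LC, 145.5 CPM). Adora2a, a receptor of striatal neurons, was highest in the core (NAcC, 121.6 CPM) and shell (NAcSh, 112.5 CPM) of the nucleus accumbens. The next region was the basolateral amygdala, at 81.9 CPM. Ppp1r1b, the other marker taken for NAcC and NAcSh, had the same order, at 387.5, 312.4 and 223.4 CPM. Avp and Oxt, hormones of the paraventricular nucleus (PVN), were near 0 there, at 0.218 and 0.259 CPM, and were highest in the ventromedial hypothalamus (VMH). Hcrt, the marker taken for the lateral hypothalamus, ranked 3rd there at 19.4 CPM and was also highest in VMH, at 54.5 CPM.

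Both genes were sorted by replicate number far more than by region. In Sham libraries of number 3, Cds2 ranged over the regions from 19.6 CPM (3 reads, in the shallow ILC library) to 140.7 CPM, with a median of 47.1. In Sham number 1 it ranged from 0 to 22.9 CPM with a median of 1.38. In numbers 4 and 5 the Sham medians were 4.27 and 4.82 CPM, with every library between 2.79 and 6.17. The median Sham library held 178 reads of Cds2 in number 3 against 84 and 99 reads in numbers 4 and 5. Levels of different numbers rest on the TMM scaling, and unscaled levels were not compared. The FT libraries of number 3 were again the highest, from 30.0 to 107.9 CPM with a median of 55.0. The other FT libraries had medians of 1.06 CPM in number 1, 0.774 in number 4 and 0.549 in number 5.

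**Figure D1:**
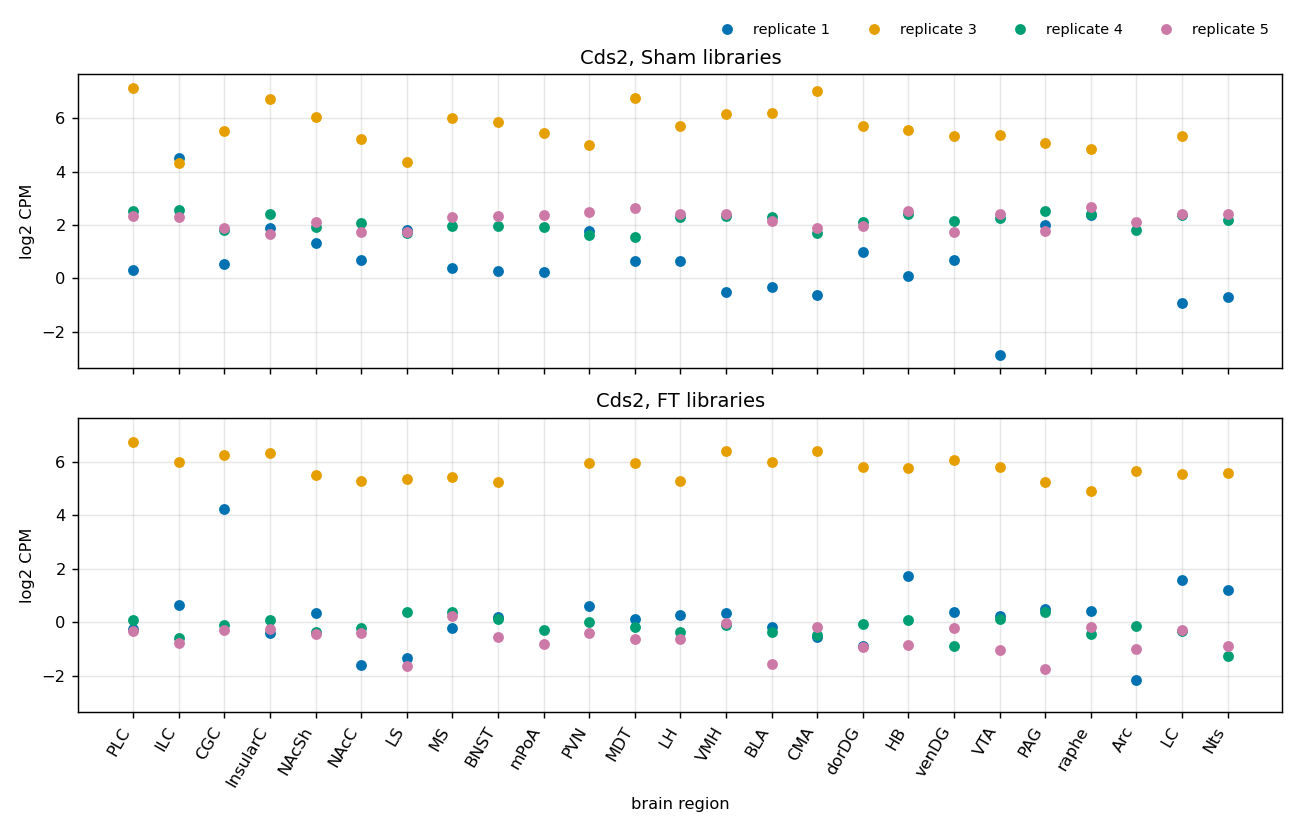
Level of Cds2 in each library, as log2 CPM (vertical axis) by brain region (horizontal axis), with Sham libraries above and FT libraries below; each point is 1 library, coloured by replicate number. Number 3 lies highest in nearly every region of both treatments, and numbers 4 and 5 lie lower in FT (at most 1.18 CPM) than in Sham (at least 2.79 CPM).

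For Ormdl3 the same number was highest. Its Sham medians were 0.881, 11.3, 0.370 and 1.05 CPM in numbers 1, 3, 4 and 5, and its FT medians were 0.804, 9.31, 0.104 and 0.0783 CPM. Ormdl3 was counted in few reads. The median library held 8 reads in Sham number 4 and 1 read in FT numbers 4 and 5, and 4 and 7 of the 25 FT libraries of those numbers held none. Over the 13 libraries with 0 reads of Ormdl3, a count of 0 allows a level of up to 0.145 to 19.6 CPM, the highest being the shallow ILC Sham library of number 3. Cds2 had 0 reads only in the VTA Sham library of number 1, which allows up to 1.84 CPM. These limits cover counting error only.

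**Figure D2:**
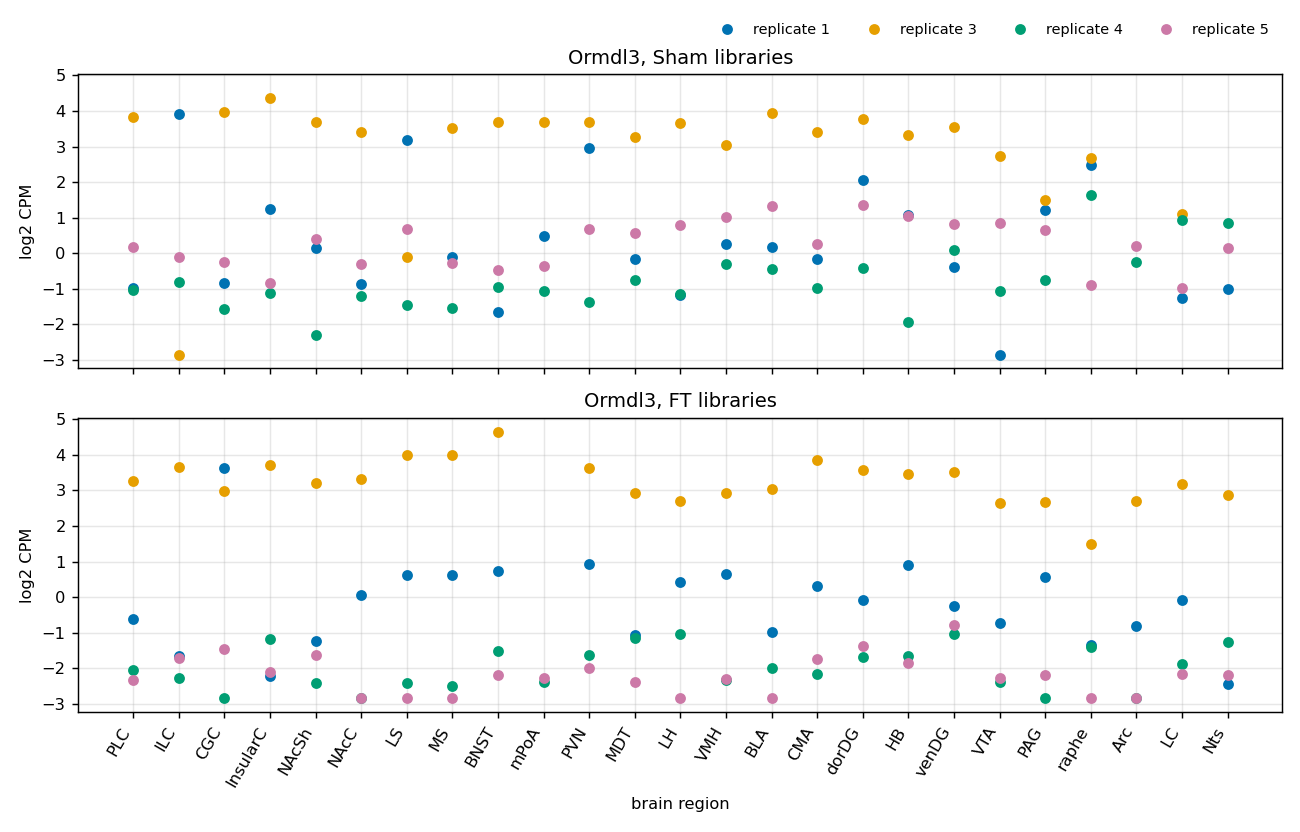
Level of Ormdl3 in each library, as log2 CPM by brain region, with Sham libraries above and FT libraries below; each point is 1 library, coloured by replicate number, and a library with 0 reads sits at -2.85. Number 3 is highest in most regions, and FT numbers 4 and 5 have medians of 0.104 and 0.0783 CPM.

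The share of the variation in log2 CPM that each factor took makes the same point within each treatment. Among Sham libraries, replicate number took 82.1% of the variation of Cds2 and region 2.69%. For the median of all tested transcripts these shares were 35.8% and 24.8%. The replicate share of Cds2 was at or above that of 98.1% of tested transcripts. For Ormdl3 in Sham, number took 52.5% and region 6.54%, with 40.3% left to neither. Among FT libraries the number took 92.0% of the variation of Cds2 and 86.6% of that of Ormdl3, against a median of 41.0%. Number 3 also differed in library measures. Its 50 most abundant transcripts took a median of 68.6% of reads in Sham and 67.7% in FT, against 28.2% to 37.5% in the other numbers, and its median totals were 5759060 and 6733738 reads, the lowest of any number. Summed astrocyte markers ran from 2754 to 25958 CPM in Sham number 3 against 398 to 3905 CPM in the other Sham numbers. The part of these measures in the levels of Cds2 and Ormdl3 was not tested.

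FT was compared with Sham within each pair. Cds2 was lower in the FT library of 25 of 25 pairs of number 4 and of 25 of 25 pairs of number 5, with median log2 ratios of FT to Sham of -2.29 and -2.91. The ratios ran from -3.29 (Nts) to -1.27 in the lateral septum (LS) in number 4, and from -3.77 in the basolateral amygdala (BLA) to -1.93 in the insular cortex (InsularC) in number 5. Across both numbers the 50 FT libraries did not overlap the 50 Sham libraries. The highest FT level was 1.18 CPM (LS) and the lowest Sham level was 2.79 CPM in the mediodorsal thalamus (MDT). Every FT library was below every Sham library for 18 of 13114 transcripts (0.137%), for 25 (0.191%) in number 4 alone and for 132 (1.01%) in number 5 alone. The opposite split was not counted. The list that named Cds2 was chosen on these pairs among others, so nothing is read from its place among the 18.

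In number 1 Cds2 was lower in FT in 15 of 23 pairs, with a median log2 ratio of -0.56, and in number 3 in 9 of 23 pairs, with a median of 0.15. In these numbers FT and Sham libraries overlapped, and 0 of the 13114 transcripts had every FT library below every Sham library (0% in each). The extremes of number 1 lay in the pairs whose libraries stand apart, -3.87 in ILC and 3.49 in CGC. The next highest of number 1 was 2.74 in VTA, where the Sham library held 0 reads of Cds2. The highest of number 3 was 8.01, in Nts, where the shallow Sham library held 0 reads. The next highest was 1.71, in ILC, where the shallow Sham library held 3 reads and the FT library 154.

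**Figure D3:**
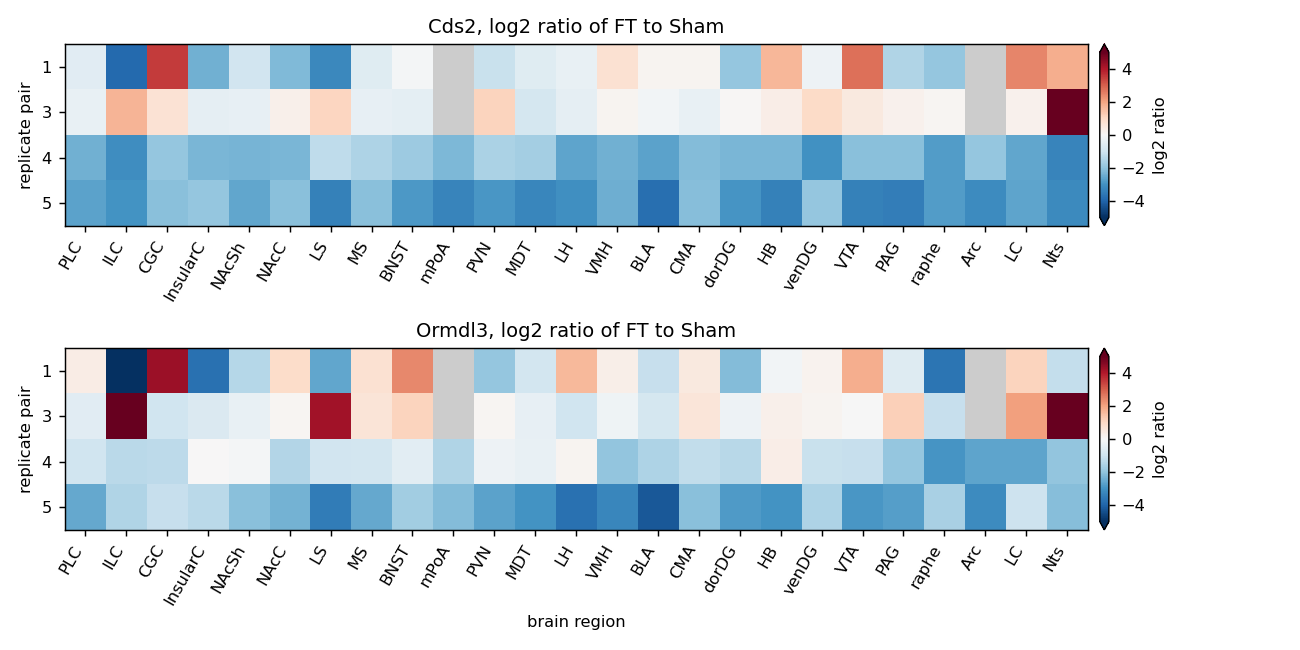
Log2 ratio of FT to Sham for Cds2 (above) and Ormdl3 (below) in each replicate pair (rows) and region (columns); blue is lower in FT, red is higher, grey marks a missing pair, and values beyond the ends of the scale take the end colour. The rows of numbers 4 and 5 are blue throughout for Cds2, with medians of -2.29 and -2.91, and the rows of numbers 1 and 3 are mixed.

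Ormdl3 was lower in FT in 22 of 25 pairs of number 4 and in 25 of 25 pairs of number 5, with median log2 ratios of -1.24 and -2.54. The 3 pairs of number 4 in which it was not lower were InsularC, the lateral hypothalamus (LH) and the habenula (HB), at 0.00, 0.12 and 0.31. In numbers 1 and 3 it was lower in 12 and 11 of 23 pairs, with medians of -0.15 and 0.09. FT and Sham libraries of Ormdl3 overlapped in every number. In number 5 the overlap was narrow, with 1 FT library at or above the lowest Sham library and 3 Sham libraries at or below the highest FT library. The extremes again lay where libraries stand apart or hold few reads, at -5.43 (ILC) and 4.28 (CGC) in number 1, and at 6.20 (ILC), 5.32 (Nts) and 4.20 (LS) in number 3, where the Sham libraries held 0, 0 and 1 reads.

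Medians over regions were also taken for the 13114 transcripts tested in at least 15 regions, each over the regions in which it was tested. The medians of these transcripts were close to 0, between -0.03 and 0.07. In numbers 4 and 5, 0.137% and 0.0610% of them had a median at or below that of Cds2, against 8.65% and 58.3% in numbers 1 and 3. For Ormdl3, the medians over its 17 tested regions were 0.18, 0.09, -1.24 and -2.77 in numbers 1, 3, 4 and 5. In number 1 the sign thus differs from that over all 23 pairs (-0.15). The shares at or below these were 72.1%, 52.4%, 0.961% and 0.0839%. Both genes lay far down the distribution in pairs 4 and 5 and inside it in pairs 1 and 3. The list that named them was chosen on this contrast, so nothing is read from these places. For Ormdl3 they also cover only the regions that passed the low-count filter.

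Library measures and cell type markers were compared in the same pairs. The share of reads ambiguous between features was lower in FT in 22 of 25 pairs of number 4 and 23 of 25 of number 5, by medians of -0.839 and -0.618 percentage points, and in 12 and 14 of 23 pairs of numbers 1 and 3. The share taken by the 50 most abundant transcripts was lower in FT in 22 and 15 of 25 pairs of numbers 4 and 5, and in 16 and 12 of 23 of numbers 1 and 3. The share of reads outside features was lower in FT in 4 of 25 pairs of number 4 and in 18 of 25 of number 5, and in 20 and 11 of 23 of numbers 1 and 3. The mean log2 ratio of 5 astrocyte markers was below 0 in 24 and 25 of 25 pairs of numbers 4 and 5, with medians of -0.63 and -0.60, and in 14 and 6 of 23 pairs of numbers 1 and 3. Of the 5 markers, 3 had a negative median in each of numbers 4 and 5. The summed astrocyte markers ran from 407 to 868 CPM in FT and from 522 to 813 CPM in Sham in number 4, and from 460 to 831 and from 398 to 754 CPM in number 5. The mean of the 6 neuronal markers was lower in FT in 15 and 24 of 25 pairs of numbers 4 and 5, with medians of -0.08 and -0.37. It was lower in 11 and 12 of 23 pairs of numbers 1 and 3. Of the 6 neuronal markers, 3 and 4 had a negative median in numbers 4 and 5. The mean of the 2 microglial markers was lower in 17 and 22 of 25 pairs, with medians of -0.22 and -0.28, and in 9 and 5 of 23. Only 1 of the 2 had a negative median in each of numbers 4 and 5. The mean of the 6 oligodendrocyte markers was lower in 16 and 7 of 25 pairs, with medians of -0.04 and 0.20, and in 11 and 13 of 23. Of these 6, 4 had a negative median in each of numbers 4 and 5. Ttr, the choroid plexus marker, was lower in 16 and 16 of 25 pairs, with medians of -1.13 and -0.55, and single pairs ran from -7.77 to 4.51 in these numbers. The part of these measures in the ratios of Cds2 and Ormdl3 was not tested.

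Each region was then fitted on its own with the replicate number as a block (edgeR's quasi-likelihood test over all transcripts), and calls needed an adjusted p of at most 0.1 together with a log2 fold change (log2FC) of 0.32 or more in size. Cds2 passed the low-count filter in 25 of 25 regions and had a negative log2FC in each. The median log2FC was -1.55, and the standard errors lay between 0.33 and 0.85. Cds2 was called lower in 3 regions, the medial preoptic area (mPoA), the raphe and the arcuate nucleus (Arc). Over all regions 0.913% of tested combinations of transcript and region were called lower and 1.01% higher. With DESeq2, Cds2 was called lower in 15 regions, where 0.803% of combinations were called lower and 1.19% higher. Of the 11365 transcripts tested in all regions, 2.89% were negative in every one. Without the replicate block the log2FC of Cds2 was negative in 15 regions, with a median of -0.15 and 0 calls. For Ormdl3 that fit gave 11 of 17 negative, a median of -0.15 and 0 calls. Without number 4 or without number 5, Cds2 was called in 0 regions, with medians of -1.17 and -1.04.

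The 3 regions call for their single values. In mPoA, Cds2 was at 1.03, 43.4, 3.69 and 5.11 CPM in Sham numbers 1, 3, 4 and 5, and at 0.679 and 0.432 CPM in FT numbers 4 and 5. The log2FC was -3.01 with a standard error of 0.42, and 4.74% of transcripts tested there were called lower. In Arc, Cds2 was at 3.39 and 4.14 CPM in Sham numbers 4 and 5. The FT libraries of Arc held 0.0868, 51.1, 0.774 and 0.359 CPM in numbers 1, 3, 4 and 5. The log2FC was -2.67 with a standard error of 0.41, and 10.8% of transcripts were called lower in Arc. Numbers 4 and 5 were the only complete pairs in both regions, so both calls rest on the pairs in which Cds2 was lower everywhere.

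The raphe, the seat of most serotonin neurons, had all 4 pairs. Its Sham libraries held 5.02, 28.3, 5.17 and 6.17 CPM of Cds2 in numbers 1, 3, 4 and 5. Its FT libraries held 1.19, 30.0, 0.596 and 0.737 CPM. Cds2 was lower in FT in 3 of the 4 pairs, and the groups overlapped because both libraries of number 3 stood above the rest. The log2FC was -1.80 with a standard error of 0.51, in a region where 3.51% of transcripts were called lower. Elsewhere the log2FC of Cds2 ran from -2.67 (ILC) to -0.60 (LC). The ILC fit kept the pair of number 1, whose Sham library stands apart and whose log2 ratio was -3.87. Cds2 was lower in every pair in 9 of the 25 regions, mPoA and Arc included, and in 74 of 96 pairs in all.

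In 7 regions Cds2 was lower in 4 of 4 pairs and was not called by edgeR, namely the prelimbic cortex (PLC), InsularC, NAcSh, the medial septum (MS), the bed nucleus of the stria terminalis (BNST), MDT and LH. DESeq2 called Cds2 lower in each of these 7 regions. In PLC, for example, Sham libraries held 1.09, 140.7, 5.54 and 4.91 CPM and FT libraries 0.701, 107.9, 0.934 and 0.652 CPM in numbers 1, 3, 4 and 5, with a log2FC of -1.51 and a standard error of 0.41. The log2 ratios of the PLC pairs were -0.56, -0.39, -2.42 and -2.69.

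Ormdl3 passed the low-count filter in 17 of 25 regions. The 8 regions in which it did not pass were PLC, ILC, InsularC, NAcSh, VTA, raphe, LC and Nts. A filter passed more readily where 1 group is high favours transcripts that differ, so the values over the 17 regions describe those regions only. The log2FC was negative in 16 of them, with a median of -1.25 and standard errors from 0.44 to 1.13. The exception was BNST, at 0.58 with a standard error of 0.68. With pair 1 kept in the CGC fit, 15 of the 17 were negative. Ormdl3 was called lower in mPoA and Arc by edgeR. DESeq2 called it lower in 3 other regions, BLA, the dorsal dentate gyrus (dorDG) and raphe, and called it neither in mPoA nor in Arc, so the tools shared 0 regions. The raphe was among the regions that did not pass the low-count filter for edgeR. It was lower in every pair in 7 of 25 regions and in 70 of 96 pairs.

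In mPoA, Ormdl3 had 9 and 12 reads in Sham numbers 4 and 5, or 0.342 and 0.646 CPM, and 1 and 2 reads in FT, or 0.0523 and 0.0665 CPM. In Arc it had 12 and 25 reads in Sham numbers 4 and 5 and 0 reads in both FT libraries of those numbers. With FT set at the limit of 3 reads per library and the Sham counts taken as exact, FT was at least 4.83-fold lower in number 4. In number 5 it was at least 4.71-fold lower on the same basis. The counting error of the Sham libraries is not included. The fitted log2FC of -6.66 in Arc depends on the prior count and is no measure of size. The unpaired FT libraries of Arc, numbers 1 and 3, held 5 and 16 reads. In BLA the FT library of number 5 held 0 reads of Ormdl3 against 57 in Sham, at least 12.2-fold lower with the Sham count again taken as exact.

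In BNST the Ormdl3 levels were 0.181, 12.7, 0.374 and 0.587 CPM in Sham numbers 1, 3, 4 and 5 and 1.53, 25.1, 0.210 and 0.0784 CPM in FT. FT was higher in numbers 1 and 3 and lower in numbers 4 and 5. The raphe had no edgeR value, since Ormdl3 did not pass the filter there. Its Sham libraries held 5.48, 6.32, 3.003 and 0.401 CPM and its FT libraries 0.251, 2.69, 0.239 and 0 CPM, so FT was lower in 4 of 4 pairs, with 94, 25, 36 and 5 reads in Sham against 4, 6, 2 and 0 in FT. The groups overlapped through the Sham library of number 5 and the FT library of number 3.

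Levels between the regions of untreated brain were compared in a joint edgeR fit of 97 Sham libraries with the number as a block. By the F test over all regions, 70.7% of 17042 transcripts differed between regions at an adjusted p of at most 0.05. Neither gene was among them, with an adjusted p of 0.265 for Cds2 and 0.361 for Ormdl3. With DESeq2, which called 75.7% of transcripts, the adjusted p was 0.0429 for Cds2 and 0.388 for Ormdl3. A p above the threshold does not show equal levels, and the standard errors of single regions against the rest, 0.34 to 0.53 for Cds2 and 0.50 to 0.82 for Ormdl3 on the log2 scale, leave room for differences of that size.

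In the order of mean Sham levels (log2 CPM, mean ± SD over libraries), Cds2 stood highest in ILC at 3.42 ± 1.16 and then in InsularC at 3.18 ± 2.37, PLC at 3.07 ± 2.89 and raphe at 3.07 ± 1.18 (n = 4 each). A middle group followed. It ran from MDT at 2.90 ± 2.69 through NAcSh (2.85 ± 2.16), the periaqueductal gray (PAG, 2.84 ± 1.52), LH (2.77 ± 2.12), PVN (2.73 ± 1.57), dorDG (2.70 ± 2.07), MS (2.67 ± 2.38), HB (2.64 ± 2.25) and BNST (2.61 ± 2.34) to VMH (2.60 ± 2.74) and BLA (2.57 ± 2.69). Below these came mPoA (2.50 ± 2.17), the amygdala region CMA (2.49 ± 3.22), the ventral dentate gyrus (venDG, 2.47 ± 2.00), CGC (2.44 ± 2.15), NAcC (2.44 ± 1.94), LS (2.41 ± 1.31) and LC (2.30 ± 2.56), all with n = 4. Last were Arc at 1.96 ± 0.20 (n = 2), VTA at 1.80 ± 3.41 (n = 4) and Nts at 1.29 ± 1.73 (n = 3). Arc and Nts lack Sham libraries of number 3, the highest number, and with the mean of each number removed they stood at -0.20 and -0.36, while VTA was lowest at -0.86. The VTA mean includes the library of number 1 with 0 reads, set at -2.85, although 0 reads allow up to 1.84 CPM there. In the joint fit VTA was at -0.13 against the other regions, with a standard error of 0.41. No gap between the 24 pairs of neighbours was larger than the larger of both SDs, also after the mean of each number was removed.

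For Ormdl3 the highest mean Sham levels were in dorDG at 1.69 ± 1.74, PVN at 1.49 ± 2.30, raphe at 1.49 ± 1.65 and BLA at 1.26 ± 1.94 (log2 CPM, n = 4 each). They were followed by venDG (1.02 ± 1.77), VMH (1.01 ± 1.46), InsularC (0.91 ± 2.53), HB (0.87 ± 2.15), MDT (0.73 ± 1.79), mPoA (0.70 ± 2.10), PAG (0.66 ± 0.99) and CMA (0.64 ± 1.92). The lower group held LS (0.57 ± 1.94), LH (0.53 ± 2.29), PLC (0.49 ± 2.29), NAcSh (0.48 ± 2.46), MS (0.39 ± 2.18), CGC (0.32 ± 2.49), NAcC (0.26 ± 2.13) and BNST (0.15 ± 2.40). At the foot were ILC at 0.03 ± 2.83, Nts at 0.00 ± 0.94 (n = 3), Arc at -0.02 ± 0.32 (n = 2), LC at -0.05 ± 1.24 and VTA at -0.08 ± 2.41. The ILC and VTA means each include a library with 0 reads, set at -2.85. A count of 0 allows up to 19.6 CPM in that ILC library (number 3) and 1.84 CPM in that VTA library (number 1). In the joint fit ILC was highest, at 1.48 with its library of number 1 that stands apart, and VTA was at -0.32 (standard error 0.65). Nts and Arc again lack the highest number. With the mean of each number removed they stood at 0.06 and 0.23, in the upper part of the order, whose ends were dorDG at 1.01 and VTA at -0.77. No neighbours differed by more than the larger SD in either order. With the mean of each number removed, the median SD fell to 0.98 from 2.10 for Ormdl3 and to 0.69 from 2.16 for Cds2.

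When each region was set against the mean of the others in the same fit, Cds2 was called higher in ILC alone, by 1.68 on the log2 scale (standard error 0.38, adjusted p = 0.000444, edgeR). Over all 25 contrasts 15.6% of transcripts were called, and 12.9% were called higher in ILC. The ILC Sham libraries held 22.9, 19.6, 5.72 and 4.75 CPM of Cds2 in numbers 1, 3, 4 and 5. The value of number 3 rests on 3 reads in a shallow library. The library of number 1 is the one that stands apart. Without it the difference in ILC was 0.03 with a standard error of 0.38 and was not called (adjusted p = 1, edgeR), and the share of transcripts called higher in ILC was 5.36%. The call of Cds2 in ILC thus rests on that 1 library. With number 1 left out in every region, PLC was called instead, at 0.73 (standard error 0.24, adjusted p = 0.0243, edgeR). The other 24 contrasts of Cds2 lay between -0.46 (CGC) and 0.47 (raphe).

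Ormdl3 was called in none of the 25 contrasts by edgeR, with 3 at an unadjusted p under 0.05, and in 1 by DESeq2. The 3 were ILC at 1.48 (standard error 0.57, adjusted p = 0.0557), raphe at 1.24 (0.53, adjusted p = 0.0684) and LS at 1.03 (0.51, adjusted p = 0.184). The ILC value again included the library that stands apart, at 14.9 CPM against 0, 0.429 and 0.792 CPM in numbers 3, 4 and 5. Without it, a choice made after seeing the data, ILC was at -0.66 with a standard error of 0.80. Raphe was then called higher, by 1.36 (standard error 0.49, adjusted p = 0.0275, edgeR). That call depended on the numbers included. With 1 number left out in every region, raphe was called higher without number 3 (1.75) and without number 5 (1.64). It was not called without number 1 (0.79, adjusted p = 0.329, edgeR) or without number 4 (0.66, adjusted p = 0.497, edgeR).

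**Figure D4:**
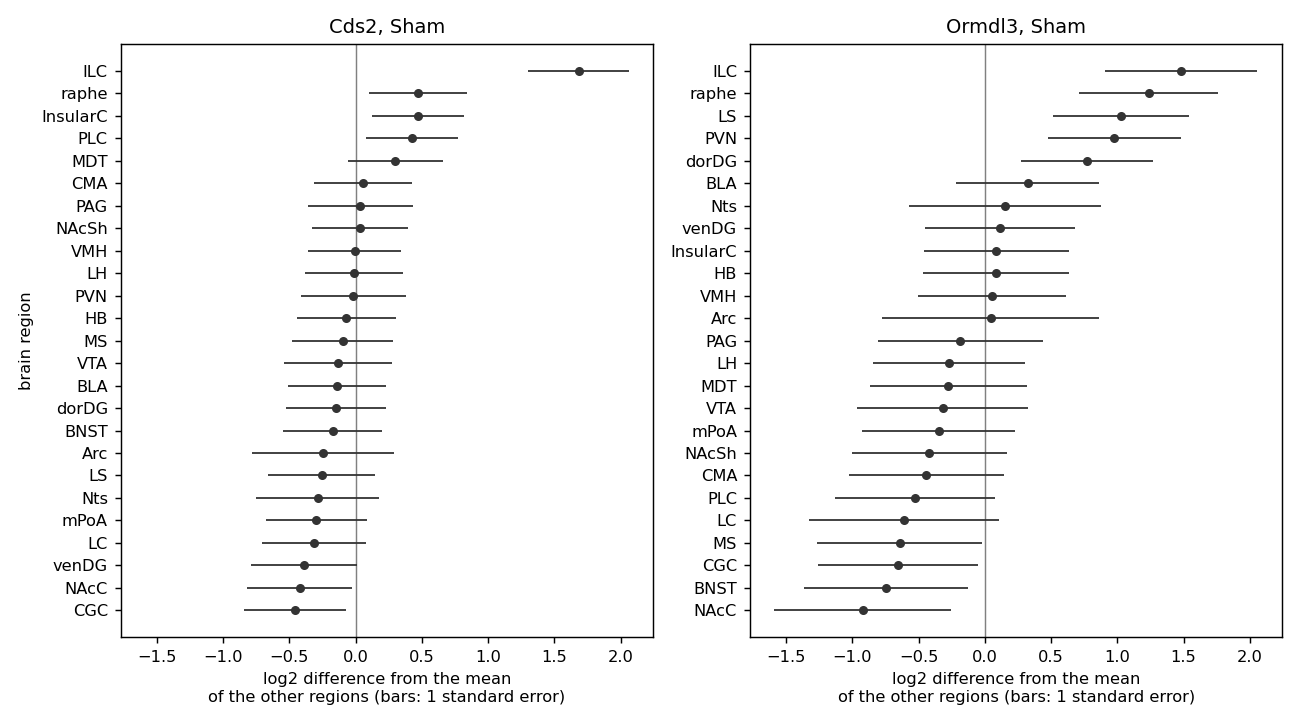
Log2 difference of each region from the mean of the other regions in Sham libraries, for Cds2 (left) and Ormdl3 (right), ordered by size; points are estimates of the joint fit and bars 1 standard error. For Cds2, ILC stands apart at 1.68 with its library of number 1 and at 0.03 without it.

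The regional profiles of both genes in Sham, as region means of log2 CPM, had a Pearson's r of 0.42 over 25 regions, and of 0.24 with the mean of each number removed. These points share pools of animals and depth, and the profiles depend on which numbers a region holds. Among 1843 named transcripts and with the number not removed, those with the profile most like Cds2 were Anapc7 (r = 0.755), a subunit of the anaphase-promoting complex, Srcin1 (0.750), an inhibitor of Src kinase, Prrc2a (0.729), Cspg5 (0.699), a brain proteoglycan, and Ap2s1 (0.690), a subunit of the clathrin adaptor AP2. The median r over all candidates was -0.0316, and 95% of them lay at or below 0.464. For Ormdl3 they were Ube2g2 (0.682), a ubiquitin-conjugating enzyme of the endoplasmic reticulum, Snurf (0.667), Apex1 (0.638), a DNA repair endonuclease, Alkbh6 (0.630) and Btbd2 (0.627), with a median of 0.0799 over all candidates. By Spearman's rho, 0 of the 5 nearest to Cds2 and 3 of the 5 nearest to Ormdl3 were still among the first 5. With the mean of each number removed, 0 and 2 were, and the r of the 10 named here lay between 0.489 and 0.660.

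The other genes of the pathways were taken from a list of 30 names covering glycerophospholipid synthesis, phosphatidylinositol supply and sphingolipids. Of these, 21 had an identifier in the study's list, Cds2 and Ormdl3 included, and the other 9 were not analysed here. Since the identifiers come from a list chosen on the FT contrast, their calls are not independent evidence. Leaving out Cds2 and Ormdl3, edgeR called 7 of 472 gene and region combinations lower and 16 higher, against 0.913% and 1.01% of all combinations. DESeq2 called 16 lower and 57 higher of 475, against 0.803% and 1.19%. The median log2FC over regions was negative for 8 and positive for 11 of the 19 genes, with a median of 0.30 over the genes against 0.01 over all transcripts.

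**Figure D5:**
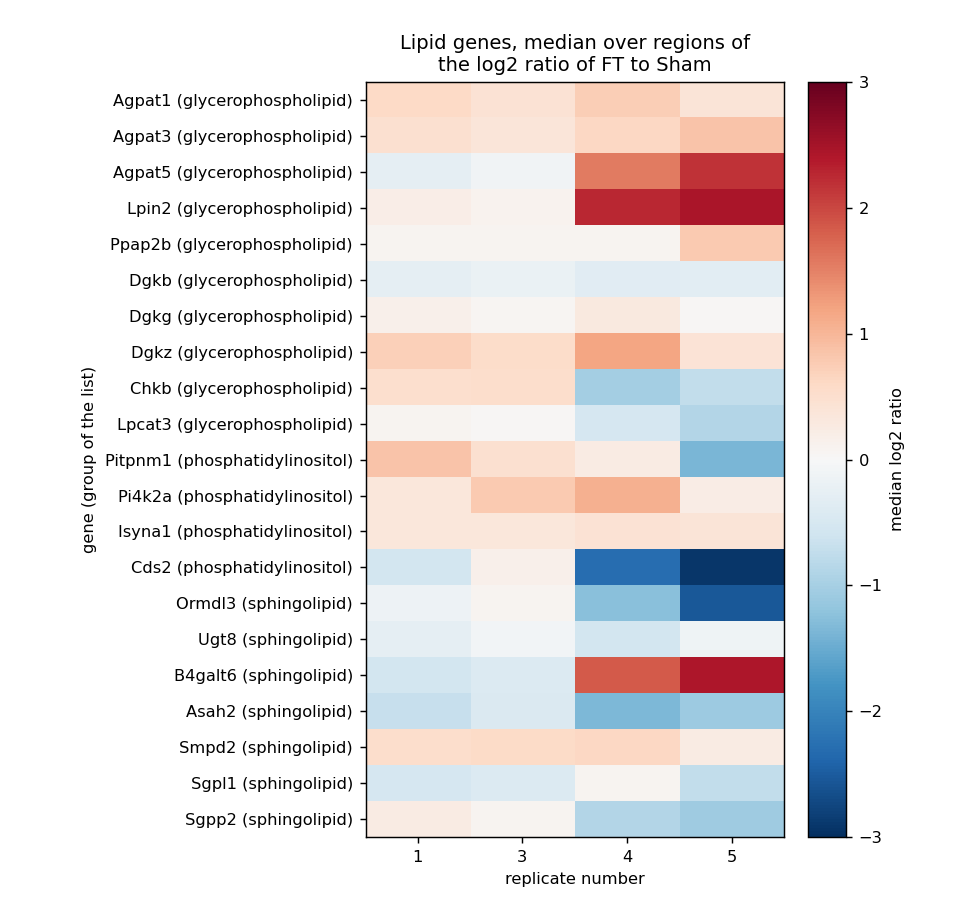
Median over regions of the log2 ratio of FT to Sham for 21 lipid genes (rows, with the group of the list) in each replicate number (columns); blue is lower in FT and red higher. Cds2 has the lowest medians of numbers 4 and 5 (-2.29 and -2.91), and Lpin2 the highest (2.27 and 2.45).

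In glycerophospholipid synthesis, the acyltransferases on the way to phosphatidic acid, the substrate of Cds2, had positive medians. The median log2FC over 25 regions was 0.49 for Agpat1, 0.62 for Agpat3 and 0.98 for Agpat5, and they were called higher by edgeR in 1, 2 and 3 regions. Lpin2, a phosphatidic acid phosphatase that leads away from CDP-diacylglycerol, had a median of 1.27, was positive in 25 of 25 regions and was called higher in 3 by edgeR and 14 by DESeq2. Its pair medians were 0.20, 0.10, 2.27 and 2.45 in numbers 1, 3, 4 and 5. They were large in the same pairs in which Cds2 was low, with the opposite sign. Agpat5 showed the same split, at -0.28, -0.11, 1.56 and 2.18.

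Ppap2b, another phosphatase of phosphatidic acid, had a median log2FC of 0.30 and was called higher in 1 region. The diacylglycerol kinases, which make phosphatidic acid by phosphorylation, differed among themselves, with medians of -0.30 for Dgkb, 0.15 for Dgkg and 0.65 for Dgkz, of which only Dgkz was called by edgeR, higher in 1 region. Chkb, a choline kinase, and Lpcat3, which remodels lysophospholipids, had medians of -0.38 and -0.49 and were called lower in 1 and 2 regions. The pair medians of Chkb were 0.51 and 0.52 in numbers 1 and 3 and -1.03 and -0.74 in numbers 4 and 5.

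Next to Cds2 on the phosphatidylinositol branch, Isyna1, which makes the inositol that is joined to CDP-diacylglycerol, had a median log2FC of 0.35 and was positive in 24 of 25 regions, with pair medians between 0.35 and 0.43 in all 4 numbers. It was called higher in 1 region by edgeR and 3 by DESeq2. Pi4k2a, a phosphatidylinositol kinase, had a median of 0.55 and was positive in 24 of 25 regions. DESeq2 called it higher in 3 regions and edgeR in 0. Pitpnm1, a phosphatidylinositol transfer protein, had a median of -0.16, was called lower in 1 region, and its pair medians were 0.86, 0.48, 0.24 and -1.36 in numbers 1, 3, 4 and 5.

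Among the sphingolipid genes besides Ormdl3, 4 had a negative and 2 a positive median. Asah2, a ceramidase, had a median log2FC of -1.11 over the 24 regions in which it was tested and was called lower in 2. Its pair medians were negative in every number, at -0.69, -0.44, -1.36 and -1.08. Sgpp2, a phosphatase of sphingosine 1-phosphate, and Sgpl1, the lyase that degrades it, had medians of -0.73 and -0.49. DESeq2 called each lower in 1 region and edgeR in 0. Ugt8, which makes the galactosylceramide of myelin, had a median of -0.35 and was called lower in 1 region. It is also among the oligodendrocyte markers above.

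B4galt6, a lactosylceramide synthase, had a median log2FC of 0.84 and was called higher in 3 regions. Its pair medians were -0.55 and -0.41 in numbers 1 and 3 and 1.83 and 2.42 in numbers 4 and 5, so its sign differed between the numbers. Smpd2, a sphingomyelinase, was positive in all numbers, with pair medians from 0.25 to 0.61, and was called higher in 1 region.

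Between untreated regions, 15 of the other 19 lipid genes differed by the joint Sham test (edgeR, adjusted p at most 0.05), a count to be read against 70.7% of all transcripts. They included Ugt8 (adjusted p = 2.82e-22, edgeR), Dgkg (1.39e-39), Dgkb (9.40e-30) and Smpd2 (3.42e-25). With Cds2 and Ormdl3, the genes not called were Agpat1 (0.0984), Agpat5 (0.516), Lpcat3 (0.479) and Pitpnm1 (0.859). In Sham, replicate number took a median of 36.3% of the variation of the 19 genes, against 82.1% for Cds2 and 52.5% for Ormdl3. The shares nearest to that of Cds2 were those of Sgpl1 (81.7%), Pi4k2a (70.9%) and Agpat1 (70.3%), and the lowest were those of Dgkg (9.49%) and Ugt8 (11.01%).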

How the data were processed

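The authors deposited raw counts per transcript for each of 196 libraries. Per the study's methods and the submitters' processing notes, reads were aligned to rn5 with STAR and counted with HTSeq after FastQC (versions not given in the sources used here). Counts are of transcripts, so reads shared by overlapping features were set aside as ambiguous. Gene names came from the study's list of altered transcripts (1845 named of 1989 listed, all found in the counts). The members and gene lists were chosen with earlier results of these data known. Named were Cds2, Ormdl3, the 5 named transcripts most like each across Sham regions, and the lipid genes with an identifier.

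Deposited counts were tested with edgeR 4.0.16 (TMM, filterByExpr with a minimum count of 10, quasi-likelihood test, Benjamini-Hochberg adjustment over all transcripts tested) in R 4.3.3. FT was compared with Sham per region with the replicate number as a block, as the study's methods do with DESeq2 (1.42.0 here, as an alternative); CGC left out pair 1. The Sham regions were compared in 1 fit of 97 libraries. In mPoA and Arc, which lack FT or Sham libraries of numbers 1 and 3, only pairs 4 and 5 carry the contrast. Pair ratios are log2 CPM of FT minus Sham, TMM within region, prior count 2. Numbers mark batches in the study's methods. Deviations of same-number libraries had a median correlation of 0.643 over regions, from -0.0255 (Arc, with 2 pairs) to 0.768. Scripts were tested on simulated data. No 2 libraries held identical counts. Many FT libraries held 0 or 1 read of Ormdl3, which limits the precision of its ratios. With the number as a block, p-values measure the spread left after differences between numbers are removed. In the Sham fit this is the spread of regions within a number, over regions that share pools of animals. The dorCA1 and venCA1 regions were not analysed here.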

Additional observations from a re-analysis of the deposited data

Results flagged for a closer look

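In 16 of 94 groups of 4 libraries tested (1 region and treatment each), the highest library lay further from the others than Dixon's 95% limit. Chance gives about 1 in 20 groups, and the regions of a number share animals. In each of the 16 the library was number 3. For Cds2 in Sham the values were 104.3 CPM in InsularC, 20.5 CPM in LS and 28.3 CPM in raphe, the LS library holding 26 reads. For Cds2 in FT they were 107.9 CPM in PLC, 80.2 CPM in InsularC, 45.4 CPM in NAcSh, 42.9 CPM in MS, 37.9 CPM in BNST, 62.5 CPM in PVN and 62.1 CPM in MDT. Further FT values of Cds2 were 39.0 CPM in LH, 84.8 CPM in VMH, 86.0 CPM in CMA, 56.7 CPM in dorDG and 30.0 CPM in raphe. For Ormdl3 the single case was ILC in FT, at 12.5 CPM from 30 reads.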

How the results depend on the processing

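The side of 0 of the median ratio of both genes in pairs 4 and 5 did not depend on the scaling or the prior count tried. In number 3 the median log2 ratio of Ormdl3 was -0.0312 with RLE size factors, against 0.09. Counts of calls moved with most settings. Cds2 was called lower in 3 regions, in 15 with DESeq2 and in 19 with no low-count filter, and in 0 to 6 when a replicate was left out. Its median log2FC ran from -2.24 to -1.04 over the replicates left out. Ormdl3 was called lower in 2 regions, in 7 with no low-count filter and in 0 to 4 when a replicate was left out. Its median log2FC of -1.25 was then between -2.24 (without replicate 3, 11 of 11 regions negative) and -0.52 (without replicate 5, 10 of 16), with 17 of 17 and 19 of 20 negative without replicates 1 and 4. Without replicate 4 or 5, mPoA and Arc could not be fitted.

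Without the replicate block, Cds2 was called in 0 regions, negative in 15, with a median log2FC of -0.15, and Ormdl3 was called in 0, negative in 11 of 17, with a median of -0.15. For the other 19 lipid genes the fit without the block called 0 combinations lower and 0 higher. In Sham it called 0 regions for Cds2, and it changed no other call of the 2 genes.

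For these lipid genes, 7 combinations were called lower and 16 higher. DESeq2 called 16 and 57, no low-count filter 25 and 70, and an adjusted p of 0.05 gave 4 lower. Leaving out a replicate gave 1 to 13 lower and 0 to 21 higher. In Sham, the adjusted p of Cds2 between regions was 0.0429 with DESeq2. With the ILC library of number 1 left out, a choice made after seeing the data, 0 regions were called for Cds2 and 1, the raphe, for Ormdl3. Ormdl3 was also called in 1 region with DESeq2 and with RLE size factors, ILC each time, and in 0 to 2 regions when a replicate was left out. Of the 5 transcripts most like Cds2, 0 were still among the 5 by Spearman's rho and 1 in FT libraries; for Ormdl3 3 and 2. With number means removed, a choice made after seeing the data, they were 0 and 2. Where no value above shows a cause, the cause was not tested. Of 168 recomputed values, 124 were taken as unchanged, 42 moved, 1 passed the threshold anew and 1 changed sign. Unchanged meant a count within a set fold margin, a median within the SD over regions, or an adjusted p on the same side of the threshold. These margins are wide. The median log2FC of Ormdl3 without the replicate block, -0.15 against -1.25, counted as unchanged.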
